A study of Mus musculus with 3 samples.

Results

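Histone and DNA modifying enzymes, together with the Smarc family of chromatin remodelling proteins, were followed in 3 replicate microarrays of sorted mouse pancreatic cells. The genes were chosen by symbol: lysine demethylases (Kdm1 to Kdm8), deacetylases (Hdac and Sirt), DNA methyltransferases (Dnmt1 and the Dnmt3 genes), Tet dioxygenases, Ezh1, Ezh2, Eed and Suz12, acetyltransferases (Kat), Setd, Ehmt and Suv39h methyltransferases, arginine methyltransferases (Prmt) and Smarc genes, with Kdm5c, Kdm5d and Kdm6a left out. This gave 74 genes, read by 127 probes, of 16593 genes with a named probe on an array of 25697 probes. All 3 samples form 1 group, titled induced delta cells and taken at day 10. They came from mice of the genotype Rag1-/-, which lack mature T and B cells. The part of the dorsal pancreas next to the spleen (its splenic lobe) had received adenovirus by injection, and after the islets were taken out the remaining acinar fraction was digested to single cells and sorted for Cherry, a red fluorescent protein. The labels do not name the gene or the promoter that the virus carried, nor say whether animals were pooled or whether each sample stands for its own animal, and the spread between arrays may therefore be technical. The extraction protocol calls the sorted cells induced beta cells, against the titles. No control, islet or acinar sample was analysed here, so every value below is a level in these cells and none is a change.

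DNA in the nucleus is wrapped around histone proteins, and enzymes that add small chemical groups to the histones (writers) or take them off (erasers) help set which genes can be read. Acetylation of histone tails by Kat enzymes goes with open chromatin and is undone by deacetylases. Methylation of lysines can go with active genes (on H3K4 and H3K36) or silent ones (on H3K9 and H3K27), depending on the residue. Dnmt enzymes methylate cytosine in DNA, Tet enzymes oxidise that mark, and the Smarc proteins include the ATP-driven motors of the SWI/SNF complex, which slide or evict nucleosomes. In the pancreas, H3K27 methylation and its loss are known to accompany endocrine development, and Dnmt1 and Dnmt3a are known to hold beta cell identity.

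The 3 arrays detected 35.6% to 37.8% of all probes above their negative controls. The marker of the titled cell type, Sst (somatostatin), was detected with Hhex, and so were the acinar genes Cpa1 and Ptf1a, the beta cell genes Ins2 and Nkx6-1, the alpha cell genes Gcg and Irx2, and the macrophage genes Adgre1 and Lyz2. Ptprc, the general leukocyte marker, the endothelial genes Pecam1 and Cdh5, the mesenchymal genes Col1a1 and Vim, and the duct keratin gene Krt19 were above background on none of the 3 arrays. Sox9, the other duct gene of the list, was above background on all 3, with log2 levels of 5.72, 5.63 and 5.85. Each array read many cells together. Which of these cells held a given chromatin transcript is therefore not shown, and fewer cells with a transcript cannot be told apart from less of it per cell.

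Most of the chromatin genes were transcribed at a level that the arrays could read. A probe was called detected where its deposited detection p-value, the share of negative controls at least as bright, was under 0.05 on all 3 arrays; for a gene with several probes 1 such probe was enough. By this call 51 of 74 members were detected (68.9%), against 40.9% of all 16593 named genes. By probe, 57 of 127 member probes were detected (44.9%), against 33.4% of all named probes. On single arrays 53, 52 and 53 members were above background on those of replicates 1, 2 and 3. A total of 19 members were above background on no array, 3 (Ezh1, Sirt1 and Tet3) on 1 array and 1 (Smarcb1) on 2 arrays. A gene with more probes has more chances to be detected. Of the 39 members with a single probe 31 were detected (79.5%), against 35.5% of all genes with 1 probe. With 2 probes the count was 11 of 21 (52.4%), against 48.7%, and with at least 3 probes 9 of 14 (64.3%), against 62.4%. Members and all genes thus lay far apart among genes with 1 probe and close together among those with more. These are shares of genes on the same arrays, given without a test.

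**Figure D1:**
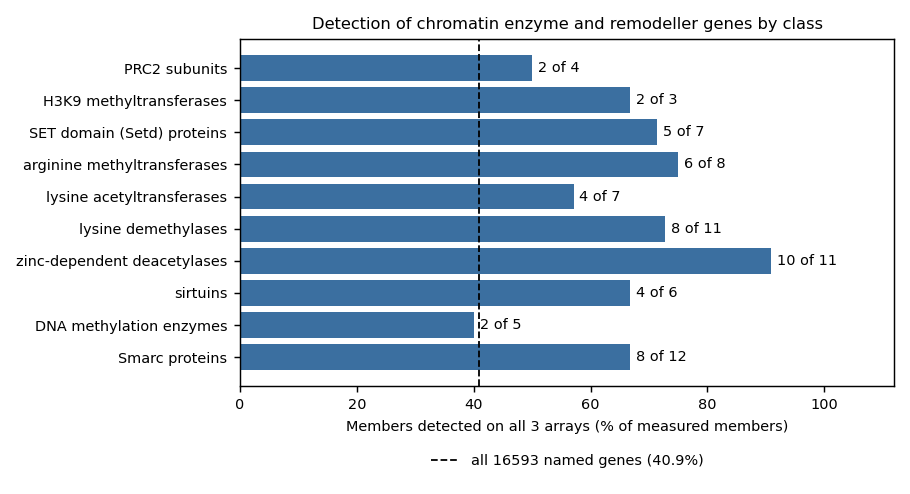
Share of the members of each class that were detected on all 3 arrays (bars, in percent of the measured members, with counts beside them); the dashed line marks the 40.9% of all 16593 named genes. Zinc-dependent deacetylases were detected for 10 of 11 members and DNA methylation enzymes for 2 of 5. Among the deacetylases, Hdac4, Hdac7 and Hdac8 were lost at a detection p under 0.01.

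Levels below are log2 intensities after background correction and quantile normalization, given for the arrays of replicates 1, 2 and 3 in that order, or as mean ± SD (n = 3 arrays). The level of a gene is that of its brightest probe. On this scale the lowest level of a detected probe lay at 4.83, 4.77 and 4.75 on the 3 arrays, and this is called the background limit. Because probes bind with different efficiency, the level of 1 gene was not ranked against that of another.

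**Figure D2:**
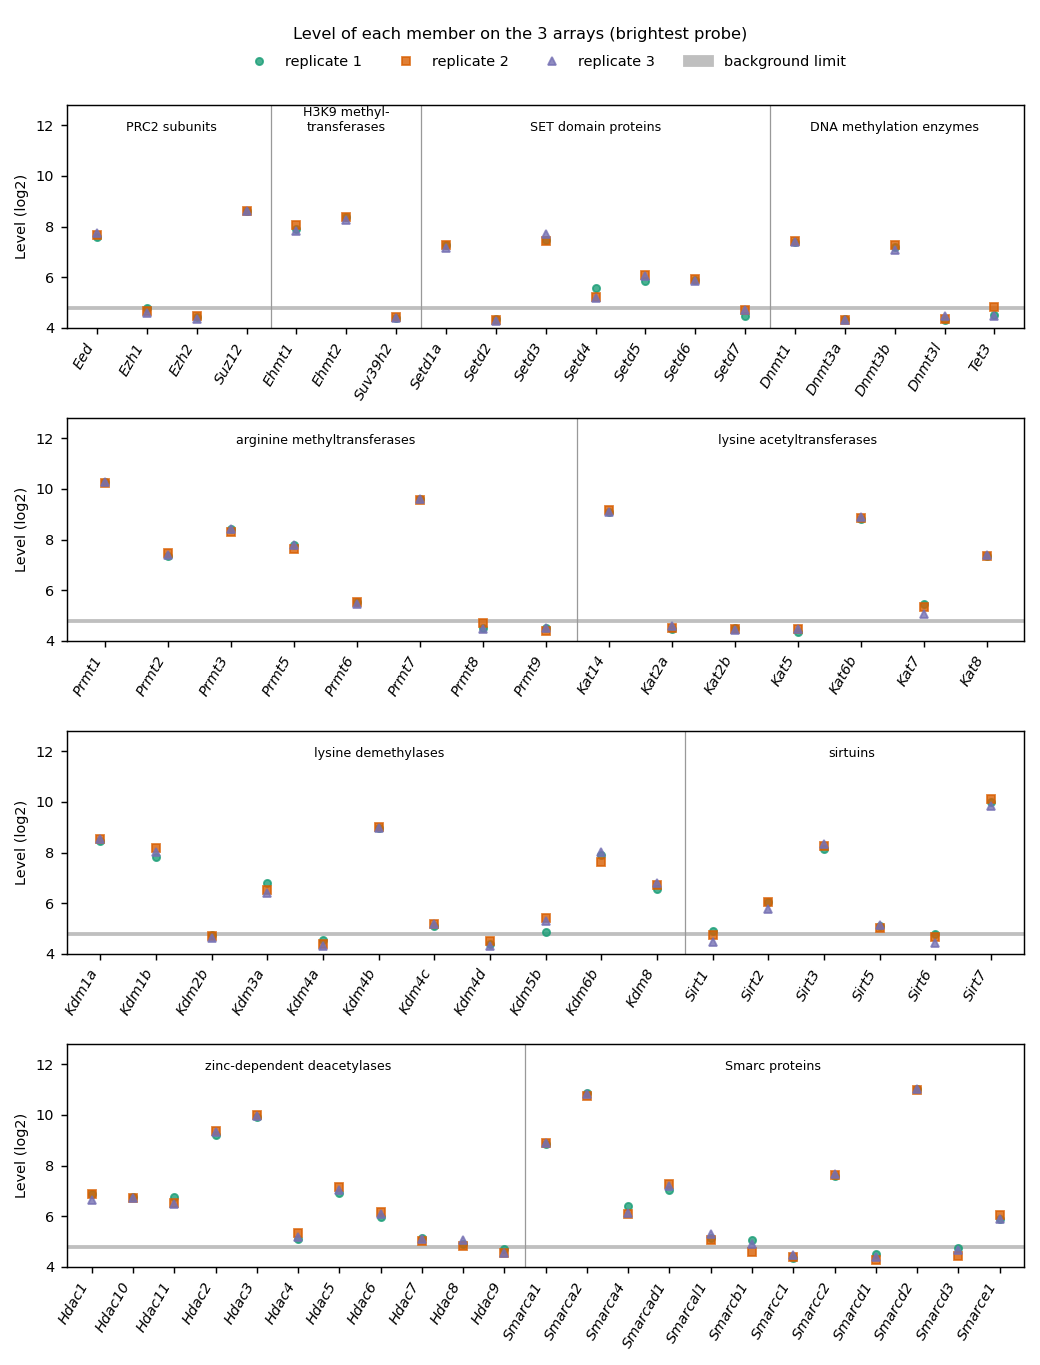
Log2 level of all 74 members on each of the 3 arrays (symbols by replicate, brightest probe of each gene), grouped by class; the grey band marks the background limits of 4.75 to 4.83. For most detected genes the 3 symbols fall on top of each other, while Kdm5b stands out with 4.85 on replicate 1 and 5.42 on replicate 2.

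The Polycomb repressive complex 2 (PRC2), which methylates H3K27, was detected for its scaffold subunits and not for its catalytic ones. Suz12, the subunit that holds the complex together, had log2 levels of 8.60, 8.60 and 8.63. Eed, the subunit that binds the finished mark, had log2 levels of 7.60, 7.66 and 7.76. Both lay far above the limit on every array and varied little between arrays. Ezh2, the main H3K27 methyltransferase, had log2 levels of 4.44, 4.49 and 4.34, and none of its 3 probes was above background on any array. Ezh1, its close relative in non-dividing cells, had log2 levels of 4.80, 4.68 and 4.59 by the brighter of 2 probes, which was above background on no array, while the other was on that of replicate 3 alone (4.46, 4.62 and 4.84). In all 2 of 4 measured subunits were detected (50%), near the 40.9% of all genes.

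The starts of these 4 genes are shown because subunits of a single complex fell on both sides of the limit. Each window runs from 250 bases before to 50 bases after the annotated start (RefSeq, GRCm38.p6), is written 5′ to 3′ on the gene's own strand, and has every CpG dinucleotide in capitals, the site that DNA methyltransferases act on.
Suz12 (detected), chr11:79992856-79993155, plus strand: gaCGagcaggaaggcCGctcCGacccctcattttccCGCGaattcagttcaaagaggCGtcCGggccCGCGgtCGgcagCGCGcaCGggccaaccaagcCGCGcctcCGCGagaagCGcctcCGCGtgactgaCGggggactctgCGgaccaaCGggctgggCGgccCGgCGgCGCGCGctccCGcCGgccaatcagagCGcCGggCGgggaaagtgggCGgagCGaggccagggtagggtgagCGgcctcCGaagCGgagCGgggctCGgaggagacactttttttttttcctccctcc
Eed (detected), chr7:89980927-89981226, minus strand: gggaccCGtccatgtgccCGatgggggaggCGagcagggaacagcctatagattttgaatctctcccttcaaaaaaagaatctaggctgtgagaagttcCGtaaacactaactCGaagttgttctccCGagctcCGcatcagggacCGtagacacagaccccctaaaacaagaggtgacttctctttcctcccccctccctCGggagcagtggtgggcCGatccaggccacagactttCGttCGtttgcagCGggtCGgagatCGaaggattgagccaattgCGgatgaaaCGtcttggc
Ezh2 (not detected), chr6:47594981-47595280, minus strand: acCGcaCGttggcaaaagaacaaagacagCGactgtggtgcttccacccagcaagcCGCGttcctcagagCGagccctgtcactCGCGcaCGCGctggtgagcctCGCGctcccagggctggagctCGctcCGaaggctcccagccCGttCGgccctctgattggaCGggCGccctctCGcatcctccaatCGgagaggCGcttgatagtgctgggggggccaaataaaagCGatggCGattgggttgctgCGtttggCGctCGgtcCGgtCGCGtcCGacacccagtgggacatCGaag
Ezh1 (not detected), chr11:101226414-101226713, minus strand: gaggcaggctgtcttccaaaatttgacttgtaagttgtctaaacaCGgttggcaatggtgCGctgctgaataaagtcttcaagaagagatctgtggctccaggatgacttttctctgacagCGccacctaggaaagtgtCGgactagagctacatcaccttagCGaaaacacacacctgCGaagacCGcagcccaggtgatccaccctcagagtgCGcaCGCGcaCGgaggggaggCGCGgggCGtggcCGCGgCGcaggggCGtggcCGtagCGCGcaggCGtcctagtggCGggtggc
The windows of the detected subunits held 41 (Suz12) and 17 (Eed) CpG dinucleotides, and those of the undetected ones 31 (Ezh2) and 23 (Ezh1). CpG content at the start did not separate the detected subunits from the others.

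Of the H3K9 methyltransferases, which write a mark of silent chromatin, 2 of 3 were detected (66.7%), against 40.9% of all genes. Ehmt1 (also called GLP) had log2 levels of 7.90, 8.05 and 7.81, and Ehmt2 (G9a), with which it forms a pair, log2 levels of 8.37, 8.36 and 8.26. Both partners were above the limit on every array by their brightest probe. The other probes of Ehmt1, annotated to the same transcript, had means of 4.37, 4.43 and 4.70 and were not detected on all 3 arrays. Suv39h2, an enzyme of H3K9 trimethylation in heterochromatin, had log2 levels of 4.38, 4.42 and 4.39, with none of 3 probes above background on any array. Suv39h1 had no named probe here.

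Setd proteins carry the SET domain found in most lysine methyltransferases, and 5 of 7 were detected (71.4%), against 40.9% of all genes. Setd1a, the catalytic subunit of an H3K4 methyltransferase complex, had log2 levels of 7.27, 7.26 and 7.16. Setd2, the enzyme of H3K36 trimethylation, had log2 levels of 4.34, 4.30 and 4.28, at background on all 3 arrays. Setd7, an H3K4 monomethyltransferase known to work with Pdx1 in beta cells, had log2 levels of 4.47, 4.72 and 4.72 and was above background on none. So the H3K4 enzyme Setd1a was detected and the H3K36 enzyme Setd2 was not. Setd3, which methylates actin rather than histones, averaged 7.53 ± 0.162, and Setd6, which methylates the NF-kappaB subunit RelA, 5.89 ± 0.0272. Setd5, a gene whose loss in people disturbs brain development, averaged 5.99 ± 0.106 and Setd4 5.32 ± 0.23. Setd1b had no named probe here. No probe carried the symbol Setd8 either, and that gene was not looked for under any other symbol.

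Arginine methyltransferases were detected for 6 of 8 members (75%), against 40.9% of all genes. Prmt1, which deposits most of the asymmetric dimethylarginine of the cell, had log2 levels of 10.25, 10.22 and 10.26. Prmt5, the main source of symmetric dimethylarginine, had log2 levels of 7.79, 7.63 and 7.79. The main enzyme of each form of the mark was therefore above the limit on all 3 arrays. Prmt7, which makes monomethylarginine, averaged 9.59 ± 0.022, Prmt3, an enzyme of ribosomal proteins, 8.37 ± 0.055, Prmt2 7.41 ± 0.0636 and Prmt6 5.52 ± 0.0433. Prmt8, known mainly from the brain, had log2 levels of 4.52, 4.70 and 4.46, and Prmt9 averaged 4.47 ± 0.0681. Neither of these was above background on any array.

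Of the lysine acetyltransferases 4 of 7 were detected (57.1%), against 40.9% of all genes. Kat8 (MOF), the H4K16 acetyltransferase, had log2 levels of 7.34, 7.37 and 7.39. Kat7 (HBO1), which acetylates histone H3 and H4 near replication origins and genes, had log2 levels of 5.44, 5.34 and 5.05, within 1 log2 unit of the limit. Kat6b averaged 8.85 ± 0.0335 and Kat14, a subunit of the ATAC complex, 9.12 ± 0.0315. These 4 genes were called on every array. Kat2a (GCN5) had log2 levels of 4.46, 4.50 and 4.59, Kat2b (PCAF) log2 levels of 4.53, 4.49 and 4.42 and Kat5 (TIP60) log2 levels of 4.35, 4.47 and 4.46. None of the probes of these 3 coactivators was above background on any array. Kat6a had no named probe here.

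The histone demethylases were detected for 8 of 11 members (72.7%), against 40.9% of all genes. Kdm1a (LSD1), which strips methyl groups from H3K4 with the cofactor FAD, had log2 levels of 8.47, 8.52 and 8.54. Its relative Kdm1b (LSD2) had log2 levels of 7.81, 8.19 and 8.03, with the array of replicate 2 highest and that of replicate 1 lowest. Kdm6b (JMJD3), the inducible H3K27 demethylase, had log2 levels of 7.91, 7.62 and 8.02, with replicate 3 highest and replicate 2 lowest. Its second probe, annotated to the same transcript and above background on 2 of 3 arrays, had log2 levels of 4.89, 5.01 and 4.46, with replicate 2 highest and replicate 3 lowest. By the detection call, this eraser of H3K27 methylation passed with 1 of its 2 probes, and the writers Ezh1 and Ezh2 did not pass. Because probes differ in efficiency, the calls do not show that the writers were absent or lower than the eraser. Kdm5b, an H3K4 demethylase, had log2 levels of 4.85, 5.42 and 5.29. Its level of 4.85 on the array of replicate 1 lay next to that array's limit of 4.83, with a detection p of 0.0439. Kdm4b, an H3K9 demethylase, averaged 8.97 ± 0.0319, its relative Kdm4c 5.17 ± 0.0569, the H3K9 demethylase Kdm3a 6.57 ± 0.206 and Kdm8 6.69 ± 0.102. Kdm2b, an H3K36 demethylase that brings a form of Polycomb complex 1 to CpG islands, had log2 levels of 4.73, 4.72 and 4.64. Kdm4a, an H3K9 and H3K36 demethylase, had log2 levels of 4.55, 4.39 and 4.33, and Kdm4d, a gene known mostly from testis, averaged 4.42 ± 0.101. These last 3 genes were above background on no array. Kdm5a had no named probe here.

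Zinc-dependent histone deacetylases were detected for 10 of 11 members (90.9%), against 40.9% of all genes. Of these, Hdac4, Hdac7 and Hdac8 lay close to the limit and were not called at a detection p under 0.01. Hdac1 had log2 levels of 6.89, 6.88 and 6.64, Hdac2 log2 levels of 9.19, 9.37 and 9.34 and Hdac3, the enzyme of the NCoR and SMRT corepressor complexes, log2 levels of 9.90, 9.98 and 9.95. All 3 class I enzymes of the large corepressor complexes were far above the limit on each array. Hdac8, the remaining class I enzyme, averaged 4.93 ± 0.108, close to the limit. Hdac5, a class IIa enzyme that shuttles between nucleus and cytoplasm, had log2 levels of 6.90, 7.15 and 7.02, and Hdac4, of the same class, log2 levels of 5.11, 5.34 and 5.19. Class IIa enzymes are known to limit the number of beta or delta cells in the developing mouse pancreas, depending on the enzyme. Hdac9, also of class IIa, had log2 levels of 4.69, 4.55 and 4.53 and was above background on no array with either probe. Hdac7 averaged 5.10 ± 0.0654. Hdac6, the cytoplasmic tubulin deacetylase, averaged 6.07 ± 0.102, Hdac10, a polyamine deacetylase, 6.73 ± 0.041 and Hdac11, the class IV enzyme, 6.59 ± 0.137.

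Sirtuins, the deacylases that consume NAD, were detected for 4 of 6 members (66.7%), against 40.9% of all genes. Sirt3, the main deacetylase of mitochondria, had log2 levels of 8.15, 8.26 and 8.35. Sirt2, found mostly in the cytoplasm, had log2 levels of 6.04, 6.04 and 5.78. Sirt7, the nucleolar sirtuin, averaged 9.99 ± 0.143, with its highest level of 10.12 on the array of replicate 2 and its lowest of 9.83 on that of replicate 3. Sirt5, a mitochondrial desuccinylase, averaged 5.08 ± 0.0609. Sirt1, the nuclear sirtuin known to support insulin secretion, had log2 levels of 4.89, 4.73 and 4.48 and passed the limit on the array of replicate 1 alone. Sirt6, a nuclear enzyme of telomeric and metabolic gene chromatin, had log2 levels of 4.78, 4.66 and 4.43, with none of 3 probes above background on any array. Of the nuclear and nucleolar sirtuins, Sirt7 passed the call while Sirt1 and Sirt6 did not. Sirt4 had no named probe here.

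The enzymes of DNA methylation were detected for 2 of 5 members (40%), near the 40.9% of all genes. Dnmt1, which copies the mark to the new strand after replication, had log2 levels of 7.39, 7.41 and 7.40. Dnmt3b, a de novo methyltransferase, had log2 levels of 7.21, 7.27 and 7.08 by a probe annotated to one transcript, while a probe annotated to another averaged 4.45, below the limit. Dnmt1 varied least of all members between arrays, with an SD of 0.00912. Dnmt3a, the other de novo enzyme, had log2 levels of 4.35, 4.32 and 4.32, and Dnmt3l, the germ cell cofactor without catalytic activity, log2 levels of 4.30, 4.35 and 4.49. Both were above background on no array with either probe. Tet3, which oxidises methylcytosine, had log2 levels of 4.53, 4.83 and 4.46 and passed the limit on the array of replicate 2 alone. Tet1 and Tet2 had no named probe here. Uhrf1, the protein that brings Dnmt1 to newly copied DNA, averaged 8.09 ± 0.0744 (a partner gene singled out after its values were seen). Among the genes listed for dividing cells, Top2a (4.27 ± 0.0792), Cdk1 (4.44 ± 0.0309) and Ccna2 (4.26 ± 0.0188) were at background on all 3 arrays. Mki67 had no named probe here. Top2a and Ccna2 were read by 1 probe each, and whether any of the cells were dividing was not tested.

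Of the 12 measured Smarc genes 8 were detected (66.7%), against 40.9% of all genes. Smarca2 (BRM) had log2 levels of 10.88, 10.74 and 10.83, and Smarca4 (BRG1) log2 levels of 6.40, 6.07 and 6.11. These are the 2 alternative ATP-driven motors of SWI/SNF, and both were above the limit on every array. Of the core pair that scaffolds the complex, Smarcc2 (BAF170) had log2 levels of 7.60, 7.62 and 7.68, while Smarcc1 (BAF155) had log2 levels of 4.37, 4.39 and 4.46 and was above background with neither probe. Smarcb1 (SNF5), the core subunit that is lost in rhabdoid tumours, had log2 levels of 5.08, 4.59 and 4.89. It passed the limit on the arrays of replicates 1 and 3 and not on that of replicate 2. Smarce1 (BAF57), a DNA-binding subunit, had log2 levels of 5.90, 6.04 and 5.90. Of the 3 alternative BAF60 subunits, Smarcd2 averaged 11.00 ± 0.029, while Smarcd1 had log2 levels of 4.51, 4.29 and 4.38 and Smarcd3, the form known from heart and other muscle, log2 levels of 4.74, 4.43 and 4.67. Only the Smarcd2 form of this subunit was detected on all 3 arrays. Outside SWI/SNF, Smarca1 (SNF2L), a motor of the ISWI family, averaged 8.87 ± 0.0295, Smarcad1, a remodeller that keeps heterochromatin through replication, 7.17 ± 0.133 and Smarcal1, a helicase that protects stalled replication forks, 5.17 ± 0.101. Smarca5 had no named probe here.

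The starts of Smarcd2 and Smarcd1 are shown because these alternative forms of a single subunit differed in detection and also in CpG content, in opposite ways; capitals again mark CpG.
Smarcd2 (detected), chr11:106267583-106267882, minus strand: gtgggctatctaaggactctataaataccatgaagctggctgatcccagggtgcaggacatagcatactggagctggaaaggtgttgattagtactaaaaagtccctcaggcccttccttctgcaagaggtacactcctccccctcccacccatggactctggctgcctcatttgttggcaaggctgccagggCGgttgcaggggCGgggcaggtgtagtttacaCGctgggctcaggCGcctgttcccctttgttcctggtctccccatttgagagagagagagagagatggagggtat
Smarcd1 (not detected), chr15:99702037-99702336, plus strand: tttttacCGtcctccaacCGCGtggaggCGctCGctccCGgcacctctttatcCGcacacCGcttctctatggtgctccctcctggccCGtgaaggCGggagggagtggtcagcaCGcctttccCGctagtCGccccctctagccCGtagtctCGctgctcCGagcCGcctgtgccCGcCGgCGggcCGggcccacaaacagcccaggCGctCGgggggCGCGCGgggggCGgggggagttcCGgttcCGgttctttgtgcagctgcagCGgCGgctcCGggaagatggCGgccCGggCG
The window of the detected gene held 4 CpG dinucleotides and that of the undetected gene 35.

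Across the family, 68 of 74 members matched at least 1 such window (45 detected and 23 undetected genes); Hdac1, Hdac3, Hdac10, Kdm4b, Kdm6b and Smarce1 did not. The median CpG count was 24 in the 59 windows of detected members and 22 in the 35 windows of undetected members. Over all measured genes, members included, it was 20 for detected genes and 9 for undetected ones. Thus the undetected members lay near the detected genes in CpG content and away from the other undetected genes. At most 4 CpG dinucleotides were found in 11.4% of the windows of undetected members, against 34.9% for all undetected genes. Windows of 1 gene can overlap, so they are not independent, and no test was made.

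**Figure D3:**
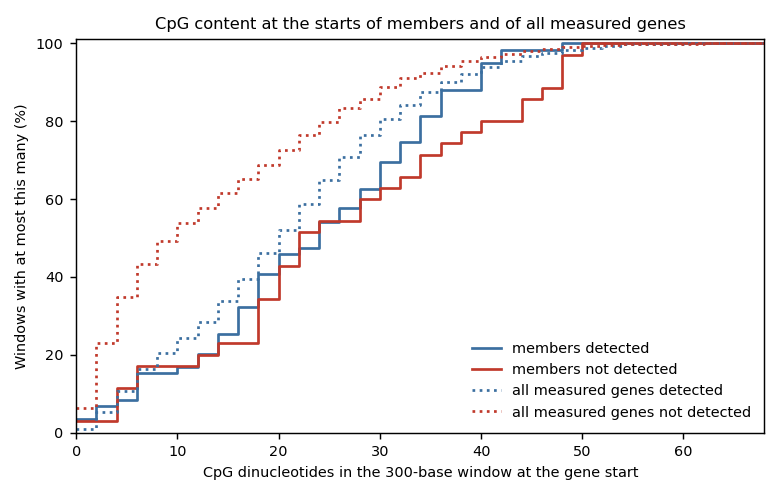
Cumulative share of 300-base windows (vertical axis, percent) with at most the number of CpG dinucleotides on the horizontal axis, for detected and undetected members (solid) and for all measured genes that were detected or not (dotted). The solid red line of undetected members (median 22) lies near the blue lines at low counts and below them at high ones, and the dotted red line of all undetected genes (median 9) lies above the others up to 40 CpG dinucleotides.

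Short promoter motifs were counted in the same windows on both strands. The GC box (GGGCGG), bound by Sp1, was found in 67.8% of the windows of detected members and in 60% of those of undetected members, against 61.6% and 40.5% for all detected and undetected genes and 35.7% of all 32851 windows. The CCAAT box (CCAAT), bound by NF-Y, was found in 47.5% of the windows of detected members and in 22.9% of those of undetected members, against 38.3%, 37.5% and 37.4% in the same 3 sets. The TATA box (TATAAA) was found in 5.08% and 2.86% of member windows, against 7.65%, 15.2% and 13.6%. An ETS core (CCGGAAG) was found in 16.9% and 11.4% of member windows, against 17.2%, 8.38% and 8.86%. An E2F-like motif (TTTCCCGC) was found in 1 window of a detected member, that of Suz12, and in 1 of an undetected member, that of Smarcd1 (1.69% and 2.86% of member windows, against 1.8%, 1.19% and 1.07%). The motifs overlap with CpG content, except for the CCAAT and TATA boxes, and a match says only that the letters occur in the window.

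Partner genes, chromatin genes that the symbol rule does not take in, were detected for 43 of 74 measured genes (58.1%), against 40.9% of all genes. In all 96 were listed, and those without a probe under the listed symbol were not measured here. Of COMPASS and MLL genes, which serve H3K4 methylation, 7 of 7 measured genes were detected, with Ash2l averaging 7.11 ± 0.0552. Kmt2a, Kmt2c, Kmt2d and Kmt2e, also on that list of 11, had no named probe here. Of PRC2 accessory genes 1 of 6 was detected, Mtf2 (5.18 ± 0.154), a subunit that targets the complex to DNA, while Aebp2 was not (4.41 ± 0.0704). Of Polycomb complex 1 genes 9 of 15 were detected, with Cbx7, a reader of H3K27 methylation, at 5.99 ± 0.0977 and Bmi1 below the limit (4.58 ± 0.106). Of the NuRD, Sin3 and CoREST corepressor genes, which hold Hdac1, Hdac2 and Kdm1a, 7 of 12 were detected, with Chd4, the NuRD motor, at 7.70 ± 0.037 and the methyl-CpG reader Mbd2 below the limit (4.23 ± 0.0317). Other BAF subunits were detected for 7 of 11 genes, with Actl6a at 7.73 ± 0.19 and Arid1a below the limit (4.45 ± 0.139). Of other acetyltransferases 3 of 5 were detected, with Ep300, an H3K27 acetyltransferase, at 7.26 ± 0.0665 and Ncoa2 below the limit (4.49 ± 0.103). Other histone methyltransferases were detected for 4 of 10 genes, with the H3K79 enzyme Dot1l at 5.88 ± 0.137 and Carm1 below the limit (4.47 ± 0.0797). Of DNA methylation partners and readers 5 of 8 were detected, among them Gadd45b at 7.02 ± 0.0648, while Gadd45a was above background on 2 arrays (4.90 ± 0.0836).

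Several of the detected genes rested on 1 probe of several. Among the 35 members with more than 1 probe, 20 had a detected probe, and 18 of these (90%) also had a probe that was not detected on all arrays, against 80.3% of all such genes. The 18 genes were Dnmt3b, Ehmt1, Ehmt2, Hdac5, Hdac6, Kat14, Kat6b, Kdm1b, Kdm3a, Kdm4b, Kdm6b, Kdm8, Prmt5, Prmt7, Setd3, Setd4, Sirt5 and Smarca2. For 16 of the 18 the detected and the undetected probe were annotated to the same transcript, and Dnmt3b and Ehmt2 were the exceptions. Smarca2 averaged 10.81 ± 0.0714 by 1 probe and 4.47 by the other. Prmt7 averaged 9.59 ± 0.022 by 1 probe, and its other 3 probes had means of 4.38 to 4.59. Kat6b averaged 8.85 ± 0.0335 by 1 probe, and its other 3 had means of 4.31 to 4.50. The 2 detected probes of Kdm3a, an example picked after its values were seen, are annotated to the same transcript and ordered the arrays in opposite ways. The brighter had log2 levels of 6.79, 6.53 and 6.39 and the other of 5.61, 5.93 and 6.08. Prmt2 and Smarce1 were the genes whose probes were all detected, with means of 7.41 and 7.20 for Prmt2 and of 5.94 and 5.46 for Smarce1. Where probes disagree, which of them read the gene rightly is not shown. A call that rests on 1 of several probes is therefore open to doubt, and an undetected probe alone does not show a silent gene. The latter applies to each undetected gene above and most to those with a single probe, Setd2, Kat2a, Kdm4d, Prmt8, Prmt9, Sirt1, Smarcb1 and Smarcd3.

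**Figure D4:**
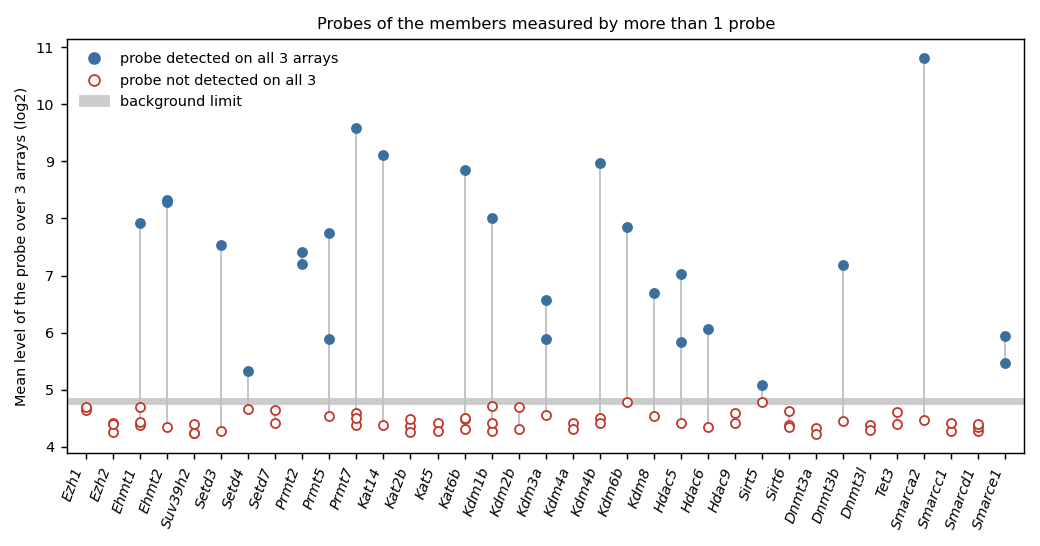
Mean log2 level over 3 arrays of each probe (points) of the 35 members with more than 1 probe; filled points were detected on all 3 arrays, open points were not, and the grey band marks the background limits of 4.75 to 4.83. In 18 genes a filled point stands above at least 1 open point near the limit.

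The detected members varied between arrays about as much as other detected genes. Their median SD was 0.0821 log2 units, against 0.0854 for all 6787 detected genes, and 1 of 51 members (Kdm5b, range 0.57) ranged over more than 0.5 log2 units (1.96%, against 2.73% of all detected genes). The spread of each probe was tested against that of probes of like level with limma's trended prior variance (F test, Benjamini-Hochberg adjustment over the 8486 probes detected on all arrays). That prior was fitted to these same probes, so the test can only single out probes that vary more than the bulk. None of the 57 member probes passed at an adjusted p under 0.05 (0% of all probes passed), and 4 had an unadjusted p under 0.05 (7.02%, against 4.8% of all probes tested). Those 4 were Kdm6b (unadjusted p = 0.0274), Kdm1b (0.0374), Sirt7 (0.0454) and Kdm5b (0.0479), each with an adjusted p of 0.989 in the limma F test. They differed in which array was highest, that of replicate 3 for the tested probe of Kdm6b (its second probe gave another order, above) and that of replicate 2 for the other 3. Of the 51 detected members 13, 20 and 18 were highest on the arrays of replicates 1, 2 and 3 (25.5%, 39.2% and 35.3%), against 36.9%, 33.3% and 29.7% of all detected genes. The median deviation of members from their own means was -0.0091, 0.0098 and 0.0166 on the 3 arrays, a range of 0.0257 log2 units, against a range of 0.0082 for all detected genes. With median scaling in place of quantile normalization the ranges were 0.188 for members and 0.152 for all detected genes.

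**Figure D5:**
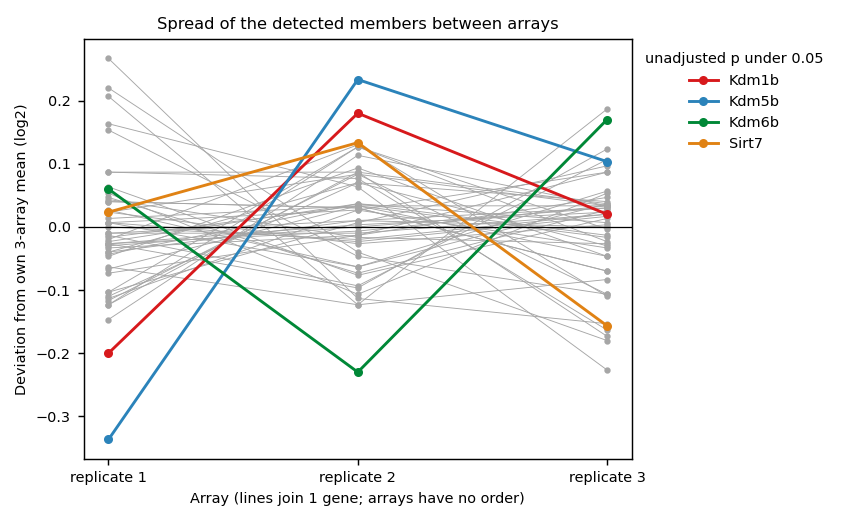
Deviation of each of the 51 detected members from its own 3-array mean (vertical axis, log2 units) on the arrays of replicates 1, 2 and 3; thin grey lines are single genes and coloured lines the 4 genes with an unadjusted p under 0.05. Kdm5b (range 0.57) has the widest spread, and the coloured lines do not run in parallel.

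A part of the detected members lay near the limit. A level under 1 log2 unit above the highest limit of 4.83 was found for 10 of 51 detected members (19.6%), against 27.6% of all detected genes. At the other end, 41 of 74 members (55.4%) had a probe brighter than every negative control on all 3 arrays, against 30.5% of all genes.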

How the data were processed

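Total RNA of 3 samples was labelled with biotin and hybridised to 1-colour Illumina MouseRef-8 v2.0 beadchips, per the labels' protocols. For every probe the first deposited table gives the mean intensity of its beads, and beside it a p-value for detection above the negative controls, per the file headers; its 3 intensity columns share a mean, so the authors had scaled the arrays. The second deposited table holds processed intensities with the same distribution in all columns, whose target is unknown, and was used as an alternative. The sources used here do not give the scanner software. Depth does not apply; the number of arrays limits the precision.

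Of 25697 probes, 23978 had 1 gene symbol in the platform annotation, 0 had several and 1719 were unnamed here. A RefSeq gene table of GRCm38.p6 matched 23962 by Entrez identifier and changed 0 symbols. Intensities were background-corrected by normexp, with negative-control parameters inferred from the detection p-values and an offset of 16, quantile normalized and taken to log2 (neqc, limma 3.58.1, R 4.3.3). The step between deposited detection p-values corresponds to 798 negative controls. The F test compared each probe's variance over 3 arrays with limma's trended prior variance. It was also run on data simulated from that same fitted prior, which cannot show whether the prior suits these arrays. Tables and figures were made with Python 3.11.15.

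The members and lists were chosen with earlier results of these data known. Of 54 members listed for their role, to be given on every array, 46 had a probe under the listed symbol and 8 did not. Members with an F test p under 0.05 joined the listed ones. All others are given by status and mean ± SD, and each partner list by its alphabetically first detected and undetected gene. Genes were not looked for under other symbols. Alternatives were other detection rules, scalings and probe rules, and each replicate left out. Promoter windows are RefSeq's.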

Additional observations from a re-analysis of the deposited data

How the results depend on the processing

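The count of 51 detected members became 44 at a detection p under 0.01, 46 after Benjamini-Hochberg adjustment of the detection p-values of an array, 52 when 2 of 3 arrays sufficed, and 51 to 52 without 1 replicate; the share of all genes was 35.4%, 36.8%, 44.7% and 41.7% to 43.1% under the same rules. The rule of 2 of 3 arrays and the runs without 1 replicate are looser by construction. Their counts, for members and for partner genes, could therefore not fall below those of the main call. The count of members fell to 33 (44.6%, against 28.3% of all genes) when every probe of a gene had to be detected, a stricter rule by construction. Counting probes in place of genes, chosen after seeing the data, gave 57. At a detection p under 0.01 the genes lost were Hdac4, Hdac7, Hdac8, Kdm4c, Kdm5b, Sirt5 and Smarcal1, all close to the limit, and the 1 gene gained under any rule was Smarcb1. The count of 43 detected partner genes was 27 when every probe had to be detected, 35 to 48 under the other rules, and 44 to 46 without 1 replicate. No member passed the limma F test (0 adjusted p under 0.05) under any of the 8 alternatives, which left 1 to 7 member probes at an unadjusted p under 0.05. Over all probes, 36 of 8486 passed with median scaling and 22 of 25697 with undetected probes tested as well, against 0 of 8486 in the main setting and 0 under the other 6 alternatives. The range of array medians, 0.0257, was 0.188 with median scaling in place of quantile normalization, where that of all detected genes was also wide (0.152); it was 0.0207 without background correction, 0.0238 with the authors' processed values, and 0.0138 to 0.0265 without 1 replicate. With an offset of 50 in place of 16 the levels of members rose by 0.02 to 1.44 log2 units, by construction. With median scaling the means of members over the arrays differed from the main setting by 0.01 at most. That scaling leaves such a mean as it was before scaling, by construction. No paired analysis was possible because there is 1 group.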

Other observations

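The histone genes themselves, a list chosen after the data were seen, were unevenly detected. Core histone genes of the clusters, whose transcripts mostly end in a stem-loop in place of a poly(A) tail and are made for DNA replication, were detected for 34 of 45 measured genes (75.6%), against 40.9% of all genes. H2ac20 averaged 10.49 ± 0.103, H2bc4 8.91 ± 0.0871 and H3c13 9.43 ± 0.151. Within each histone type these genes are near-identical copies, and which copy a probe read is uncertain. Linker histone genes were detected for 2 of 9, H1f2 (9.82 ± 0.104) and H1f10 (5.24 ± 0.0437). Replacement histone genes, which are used outside replication, were detected for 4 of 6: H3f3b (12.19 ± 0.0787) and H3f3a (6.10 ± 0.0834), both of which encode histone H3.3, Macroh2a1 (7.28 ± 0.13) and H2ax (6.56 ± 0.0264).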
